A study of Homo sapiens with 10 samples.

Results

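Messenger RNA of 10 genes of the immediate early response, EGR1, FOS, FOSL1, JUN, JUNB, JUND, ATF3, IER2, IER3 and IER5, was followed in libraries made in bulk from a line of human embryonic stem cells. They were chosen by name. Each of the 10 symbols matched 1 of the 55841 gene identifiers of the count data, and all 10 passed the filter on low counts that left 23552 genes for testing. The cells, labelled HES9, were grown in mTeSR1 medium on Matrigel, a feeder-free culture of undifferentiated pluripotent cells, and all libraries came from this 1 line. The general population was the unsorted culture (5 libraries). The HHH population was the fraction sorted for high levels of the 3 surface antigens GCTM-2, CD9 and EPCAM (5 libraries). Batch 1 held 2 general and 2 HHH libraries, and batch 2 held 3 of each. Only HHH cells passed through the sorter, so an effect of sorting and a property of the sorted cells cannot be told apart. The labels do not say that the libraries came from separate cultures, and p-values then measure the spread between these libraries, which may be technical.

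Immediate early genes are transcribed within minutes of a stimulus, without new protein synthesis. Growth factor signals reach them through the ERK kinases, which phosphorylate factors such as ELK1 that sit with serum response factor on CArG boxes, and stress signals reach them through the JNK and p38 kinases. EGR1 is a zinc finger transcription factor, FOS and JUN proteins pair to form the transcription factor AP-1, ATF3 is a stress-induced relative of these, and IER2, IER3 and IER5 are small regulatory proteins. In pluripotent cells the same pathway lies downstream of the fibroblast growth factor that the culture medium supplies.

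Library totals ran from 47.2 to 78.5 M counts. Levels are given as CPM, which scales counts to a common library size after TMM normalization. A detection floor of 3 counts came to 0.0459 to 0.0686 CPM and covers counting error only. Pluripotency genes were high in both populations, POU5F1 at 470 to 541 CPM in general and 461 to 640 CPM in HHH libraries, while blood markers summed to at most 0.184 CPM. Of the 7 pluripotency genes NANOG was higher in HHH (log2 fold change 0.44, SE 0.08, edgeR adjusted p = 0.00572) and SOX2 lower (-0.26, SE 0.07, edgeR adjusted p = 0.0375). The 4 libraries of batch 1 carried 2.71 to 4.97% of their counts in small nuclear and nucleolar RNAs, against 0.418 to 0.727% in batch 2. In bulk samples fewer cells that transcribe a gene and less RNA per cell cannot be told apart.

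Promoter sequences are shown for 3 genes, because EGR1 and its relative EGR2 were both lower in HHH and JUND stood above general in 1 batch and below it in the other. Each is the 250 bases before the RefSeq transcription start in GRCh38.p14, read 5′ to 3′ on the strand of the gene. Capitals mark matches to the CArG box in EGR1 and EGR2, and to the cAMP response element TGACGTCA in JUND. EGR1 (chr5:138465229-138465478, plus strand) has 2 CArG boxes, EGR2 (chr10:62816367-62816616, minus strand) has 1 at the start shown, and JUND (chr19:18281623-18281872, minus strand) has 1 cAMP response element.
EGR1: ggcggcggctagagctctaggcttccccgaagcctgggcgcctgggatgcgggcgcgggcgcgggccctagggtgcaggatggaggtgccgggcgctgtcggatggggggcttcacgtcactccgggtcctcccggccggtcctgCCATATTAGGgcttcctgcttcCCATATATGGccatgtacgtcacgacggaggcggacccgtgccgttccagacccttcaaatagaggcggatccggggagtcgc
EGR2: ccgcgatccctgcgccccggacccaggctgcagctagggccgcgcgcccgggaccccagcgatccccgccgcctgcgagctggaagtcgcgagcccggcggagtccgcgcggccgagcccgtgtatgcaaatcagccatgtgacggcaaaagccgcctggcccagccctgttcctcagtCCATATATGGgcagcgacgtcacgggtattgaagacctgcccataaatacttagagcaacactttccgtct
JUND: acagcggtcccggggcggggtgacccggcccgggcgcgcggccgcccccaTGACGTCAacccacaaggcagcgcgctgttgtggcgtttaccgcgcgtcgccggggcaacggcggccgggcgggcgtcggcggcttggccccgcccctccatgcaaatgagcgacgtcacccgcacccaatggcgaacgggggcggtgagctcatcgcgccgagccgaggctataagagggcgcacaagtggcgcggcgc

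The second box of EGR1 and the box of EGR2 have the same 10 letters, CCATATATGG. The boxes of EGR1 begin 105 and 83 bases before the start, that of EGR2 71 bases before it, and the element of JUND 200 bases before it. In 300-base windows around all 35116 RefSeq starts, 1.29% held a CArG box and 1.85% held TGACGTCA on either strand. Promoters were found for 8 of the 10 genes. Of these, EGR1 alone had a CArG box, so FOS had none in its window. Boxes further than 250 bases before a start were not looked for, in FOS or in the other genes. The other starts of EGR2 had none either. In the windows of these 8 genes the AP-1 element TGANTCA, which 7.71% of all windows held, and the EGR element GCGTGGGCG, held by 0.795%, had no match. The TATA box TATAAA, which 11.5% of windows held, was matched in FOS, JUNB and 1 of the 2 starts of ATF3. A match describes the letters of the window, not a bound site.

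Against the general population, IER3 was higher in HHH, and EGR1 and FOSL1 were lower. The remaining 7 genes did not pass an adjusted p of 0.05 (edgeR's quasi-likelihood test with batch as a term and Benjamini-Hochberg adjustment over all tested genes). Thus 1 of 10 was called higher, where 1.94% of all tested genes were, and 2 of 10 lower, where 3.89% were. All 3 also exceeded 1.5-fold, as did 0.637% of tested genes in the higher and 2.34% in the lower direction. The median log2 fold change of the 10 genes was -0.05, beside 0.02 over all tested genes. The 2 populations did not overlap in either batch for IER2 and IER3 on the higher side, where 3.93% of all genes behaved so, and for EGR1 on the lower side, where 5.42% did.

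**Figure D1:**
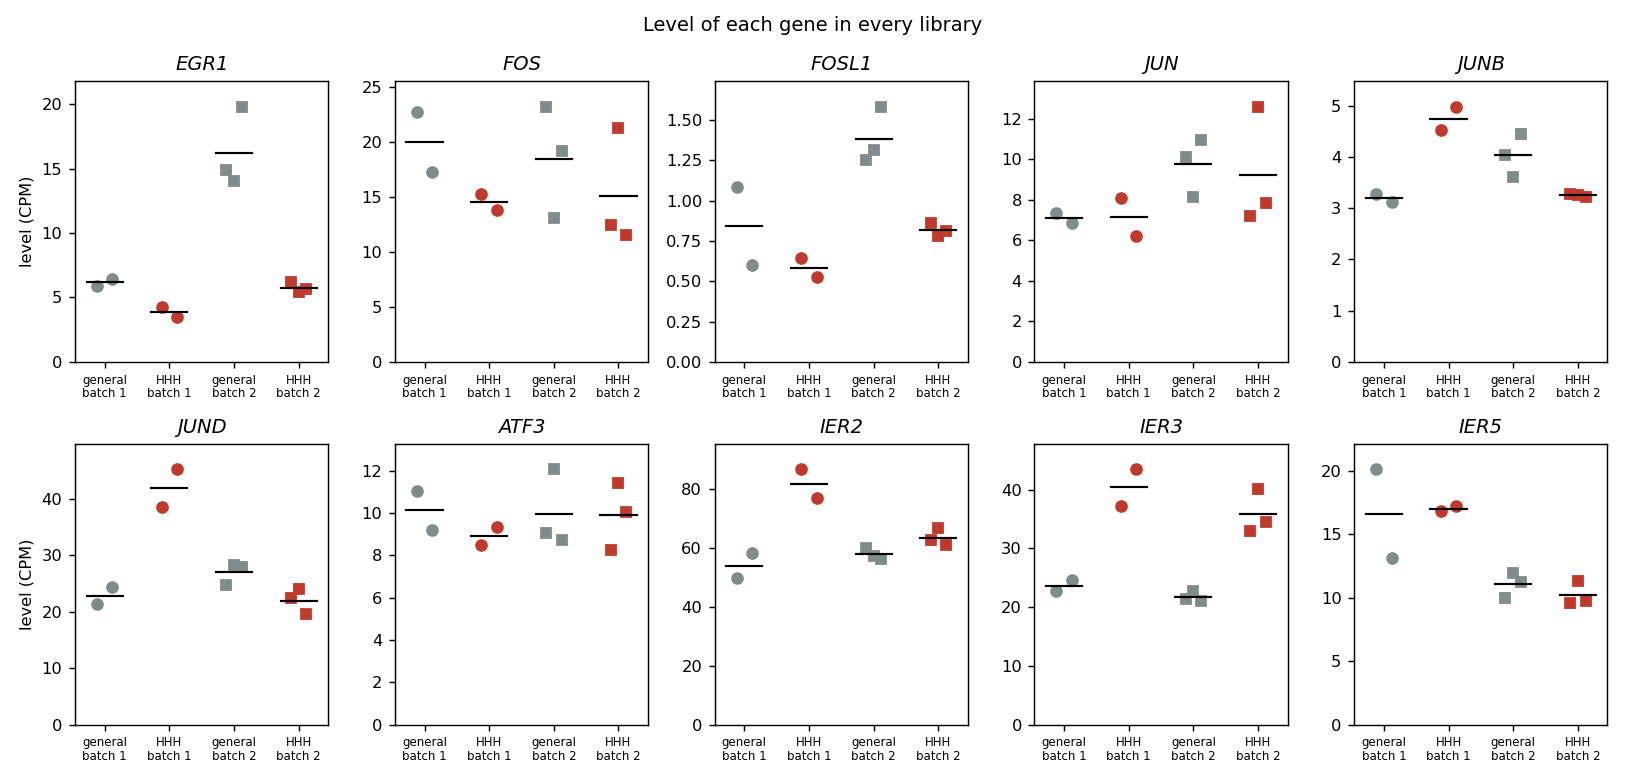
Level of each of the 10 genes in CPM (vertical axis from 0, scaled per gene) in every library, by population and batch. Each point is a library, grey for general and red for HHH, and the bar is the mean. IER3 lay at 33.0 to 43.5 CPM in the 5 HHH libraries and at 21.1 to 24.6 CPM in the 5 general ones.

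EGR1 (ENSG00000120738, chromosome 5, 138465479 to 138469303, plus strand, GRCh38) encodes the growth factor-induced zinc finger factor that gave the family its name. In the general libraries it stood at 5.91 and 6.45 CPM in batch 1, and at 14.85, 14.0 and 19.8 CPM in batch 2. In HHH it stood at 4.24 and 3.45 CPM in batch 1, and at 6.21, 5.41 and 5.65 CPM in batch 2. All 5 HHH libraries were below every general library of their own batch, although the HHH libraries of batch 2 reached the general level of batch 1. The log2 fold change was -1.19 (SE 0.15, edgeR adjusted p = 0.000288), a fold of 2.28.

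The decrease of EGR1 passed the edgeR test in batch 2, at -1.49 on the log2 scale (SE 0.14, adjusted p = 1.28e-05). In batch 1 the value was -0.68 (SE 0.18, edgeR adjusted p = 0.0685). The difference between these changes was -0.81 (SE 0.23) with an edgeR adjusted p of 0.11, so it was not shown that the batches differed. The levels themselves differed by batch: EGR1 was 2.01-fold higher in batch 2 (log2 1.00, SE 0.16, edgeR adjusted p = 0.000185).

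EGR1 made up most of the EGR family by transcript abundance per length (RPKM, CPM per kilobase of exons). Its share of the summed RPKM of EGR1, EGR2, EGR3 and EGR4 was 87.4% ± 3.44 (SD, n = 5) in general and 89.0% ± 0.723 (SD, n = 5) in HHH libraries. The sum was 4.40 ± 2.02 RPKM (SD, n = 5) in general and 1.79 ± 0.407 RPKM (SD, n = 5) in HHH libraries. EGR1 carried most of this sum, so the difference of the sum largely repeats that of EGR1. In batch 1 the share of EGR1 was 81.9 to 87.1% in general and 89.2 to 89.5% in HHH libraries, without overlap. In batch 2 it was 87.7 to 90.8% and 87.8 to 89.5%, where the populations overlapped.

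EGR2 changed with EGR1, from 0.771 to 1.62 CPM in general to 0.343 to 0.760 CPM in HHH libraries. This was a log2 difference of -1.12 (SE 0.17, edgeR adjusted p = 0.00094). EGR3, named after its values were seen because it lies below 1 CPM, had 14 to 51 counts in general and 5 to 10 counts in HHH libraries. Its log2 fold change was -1.95 (SE 0.30, edgeR adjusted p = 0.00116). EGR3 passed the filter on low counts (minimum count 10) through its general libraries, which favours a call in the lower direction. The call of EGR3 is therefore not separate support for the decrease of EGR1. NAB2, a corepressor that binds EGR proteins and is itself an EGR target, was lower by 0.30 on the log2 scale (SE 0.08, edgeR adjusted p = 0.0464). Leaving out a single library ended the call of NAB2 in 8 of 10 cases, with an adjusted p of up to 0.138 (without HHH batch 2 replicate 1).

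Markers of other cell types were set beside EGR1. Of the 4 fibroblast markers, COL1A1 was lower in HHH (log2 fold change -0.94, SE 0.17, edgeR adjusted p = 0.00334), and the 4 summed to 19.8 to 29.4 CPM in general and 9.08 to 18.6 CPM in HHH libraries. The defining markers COL3A1, LUM and DCN were at most 0.122 CPM in any library and nearly all of the sum was COL1A1. Of the 4 amnion and trophoblast markers 1 was higher (GABRP) and 1 lower (KRT7), and they summed to 8.16 to 13.0 CPM in general and 7.55 to 10.9 CPM in HHH libraries. Of the 5 neural markers SOX1 was lower (log2 fold change -1.39, SE 0.37, edgeR adjusted p = 0.0391), at 0.151 to 0.579 CPM in general and 0.0864 to 0.252 CPM in HHH libraries. DCX, which carried most of the neural sum, was at 0.20 on the log2 scale (edgeR adjusted p = 0.331), and the 5 summed to 5.45 to 9.78 CPM in general and 6.75 to 10.4 CPM in HHH libraries. The part of these transcripts in the change of EGR1 was not tested.

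FOSL1 (ENSG00000175592, chromosome 11, 65892049 to 65900573, minus strand) encodes FRA-1, a FOS family protein that accumulates under sustained ERK signalling. It was the scarcest of the 10, with 23 to 95 counts per library. The general libraries held 1.09 and 0.603 CPM in batch 1, and 1.25, 1.32 and 1.58 CPM in batch 2. The HHH libraries held 0.643 and 0.526 CPM in batch 1, and 0.858, 0.777 and 0.813 CPM in batch 2. The populations overlapped in batch 1 and not in batch 2.

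For FOSL1 the log2 fold change was -0.68 (SE 0.18, edgeR adjusted p = 0.0419), and within batch 2 in the fit of 4 groups -0.76 (SE 0.23, edgeR adjusted p = 0.0494). The call was close to its threshold. When the replicate number entered the fit as a replicate block, the change was -0.58 with an edgeR adjusted p of 0.107, and with a trend in GC content removed it was -0.60 with 0.0588. Leaving out 1 library ended it in 7 of 10 cases, with an adjusted p of up to 0.12 (without general batch 2 replicate 3), and 1 of the 7 was general batch 1 replicate 1, without which it was 0.102.

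FOS (ENSG00000170345, chromosome 14, 75278826 to 75282230, plus strand), the founding FOS protein and among the fastest genes to respond, ranged from 13.0 to 23.2 CPM in general and from 11.6 to 21.2 CPM in HHH libraries. Its log2 fold change was -0.36 (95% interval -0.73 to 0.01, edgeR adjusted p = 0.254), so a decrease of up to 1.66-fold lay within the interval. Without HHH batch 2 replicate 2, the HHH library with the most FOS, the change was -0.55 (edgeR adjusted p = 0.0607). FOS was the main FOS family transcript per length, with 76.8% ± 5.75 (SD, n = 5) of the summed RPKM of FOS, FOSB, FOSL1 and FOSL2 in general and 78.7% ± 2.82 (SD, n = 5) in HHH libraries. The share of FOSL1 was 8.09% ± 2.82 (SD, n = 5) and 6.75% ± 2.00 (SD, n = 5). Over both batches neither share differed by more than the spread between libraries. Within batch 1 the share of FOS was 81.6 to 82.7% in general and 80.7 to 80.8% in HHH libraries, without overlap. In batch 2 it was 68.6 to 76.7% and 74.8 to 80.7%, where the populations overlapped.

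**Figure D2:**
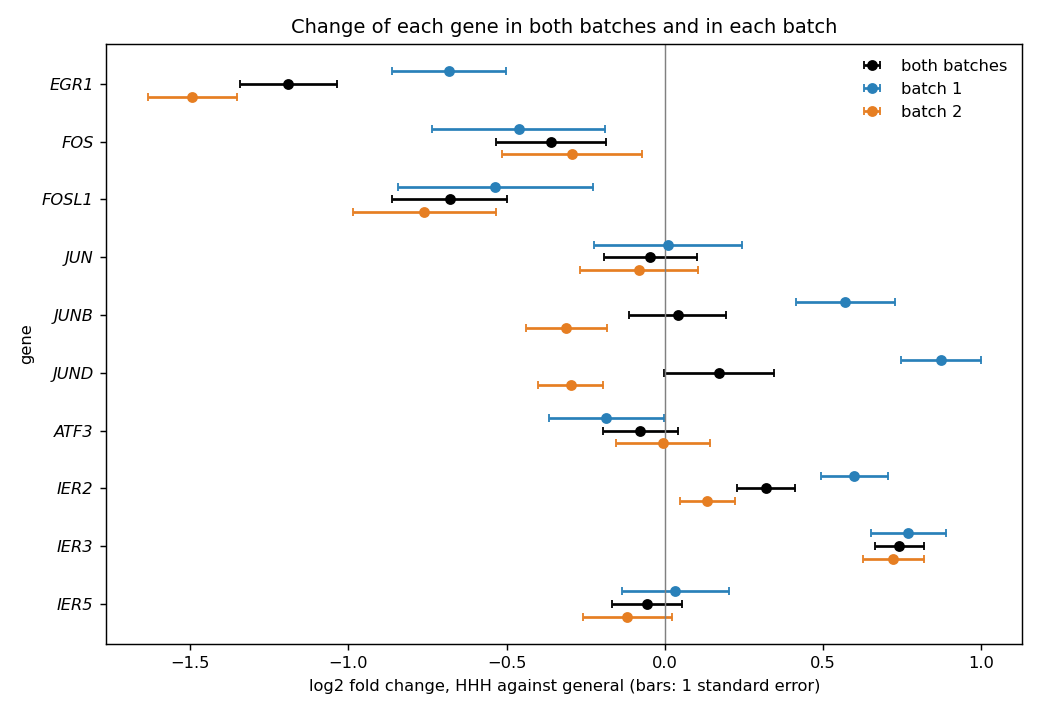
Log2 fold change of HHH against general (horizontal axis) for each of the 10 genes, over both batches (black), in batch 1 (blue) and in batch 2 (orange). Bars are 1 standard error. IER3 had nearly the same change in both batches (0.77 and 0.72), whereas JUND had 0.87 in batch 1 and -0.30 in batch 2.

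JUND (ENSG00000130522, chromosome 19, 18279694 to 18281622, minus strand) encodes the JUN protein with the steadiest expression, which dampens growth in many cell types. The general libraries held 21.4 and 24.3 CPM in batch 1, and 24.8, 28.2 and 27.9 CPM in batch 2. The HHH libraries held 38.6 and 45.2 CPM in batch 1, and 22.3, 23.9 and 19.6 CPM in batch 2. HHH lay above general without overlap in batch 1 and below it without overlap in batch 2.

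Over both batches the log2 fold change of JUND was 0.17 (95% interval -0.20 to 0.54, edgeR adjusted p = 0.616). In batch 1 it was 0.87 (SE 0.13, edgeR adjusted p = 0.00198), and in batch 2 it was -0.30 (SE 0.10, edgeR adjusted p = 0.0806). The difference of -1.17 (SE 0.16) between the batches passed the test of interaction with an edgeR adjusted p of 0.00608. JUND was the 1 gene of 10 with an interaction, and 0.722% of all tested genes had a change that was more negative in batch 2. Without general batch 1 replicate 1 the adjusted p of the interaction was 0.0546. With the replicate block the batch 2 change of JUND was called too (-0.30, edgeR adjusted p = 0.0445).

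GC content moved with this pattern. The exons of JUND are 69.9% G and C, the highest of the 10 genes. Among the 110 genes within 2 percentage points of that value and with a mean of at least 1 CPM, the median log2 fold change was 0.43 in batch 1 and -0.22 in batch 2. Over all genes the median ran from -0.09 in batch 1 and 0.15 in batch 2 for genes under 40% GC, to 0.31 and -0.21 for those of 65% and above. With the trend removed from each library, JUND had a log2 fold change of 0.37 in batch 1 (edgeR adjusted p = 0.0974), -0.05 in batch 2 and a difference of -0.42 (edgeR adjusted p = 0.261). The call of an interaction was lost in that fit.

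**Figure D3:**
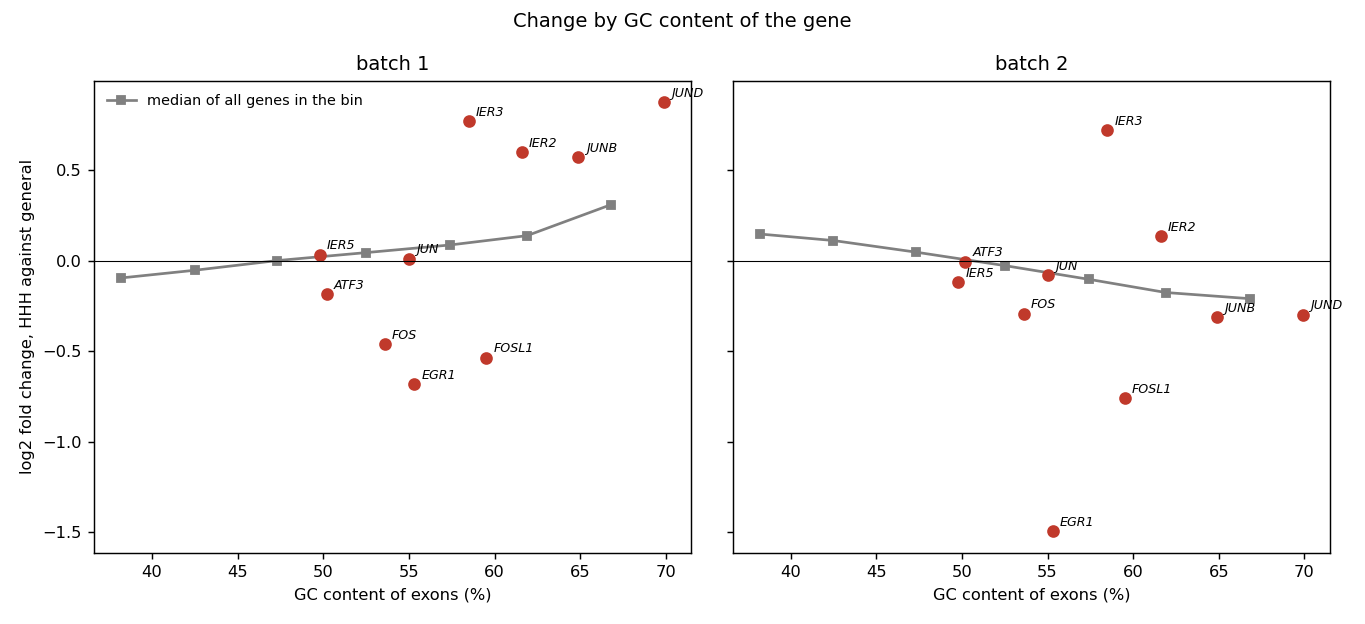
Log2 fold change of HHH against general (vertical axis) against the GC content of the exons (horizontal axis, percent), in batch 1 (left) and batch 2 (right). Red points are the 10 genes and the grey line joins the medians of all genes in 7 bins of GC content. The line rises with GC content in batch 1, to 0.31, and falls in batch 2, to -0.21.

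JUNB (ENSG00000171223, chromosome 19, 12791486 to 12793315, plus strand), an antagonist of JUN at many promoters, is also rich in G and C (64.9%). It lay at 3.12 to 3.28 CPM in general and 4.52 to 4.99 CPM in HHH libraries of batch 1, and at 3.61 to 4.45 and 3.21 to 3.28 CPM in those of batch 2. As with JUND, HHH was above general in batch 1 and below it in batch 2, without overlap. Neither change passed the edgeR test (0.57, adjusted p = 0.0799, and -0.31, adjusted p = 0.135), and the difference of -0.88 (SE 0.20) had an adjusted p of 0.066. With the GC trend removed these 3 values were 0.34, -0.09 and -0.43, the last with an edgeR adjusted p of 0.369. Its exons share 14.2% of their bases with HOOK2 on the other strand, which had 20.1 to 33.4 CPM, and reads of the 2 genes cannot be told apart there if strand was not used in counting.

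JUN (ENSG00000177606, chromosome 1, 58776845 to 58784048, minus strand), the partner of FOS in the classical AP-1 dimer, ranged from 6.85 to 10.96 CPM in general and from 6.22 to 12.6 CPM in HHH libraries. Its log2 fold change was -0.05 (95% interval -0.36 to 0.27, edgeR adjusted p = 0.896). Per length, JUND was the main JUN family transcript in every library, at 70.2 to 84.1% of the summed RPKM of JUN, JUNB and JUND. In batch 1 its share was 74.3 to 77.8% in general and 80.9 to 84.1% in HHH, and in batch 2 it was 72.0 to 77.6% and 70.2 to 75.4%, where the populations overlapped.

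ATF3 (ENSG00000162772, chromosome 1, 212565334 to 212620777, plus strand), a repressor induced by many forms of stress, ranged from 8.75 to 12.1 CPM in general and from 8.24 to 11.4 CPM in HHH libraries. The populations overlapped in both batches. The log2 fold change was -0.08 (95% interval -0.33 to 0.18, edgeR adjusted p = 0.758), an interval that leaves out changes of more than 1.26-fold in either direction.

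IER3 (ENSG00000137331, chromosome 6, 30743199 to 30744548, minus strand), also known as IEX-1, is a regulator of cell survival that ERK phosphorylates and that prolongs ERK activity. In general it stood at 22.8 and 24.6 CPM in batch 1, and at 21.3, 22.8 and 21.1 CPM in batch 2. In HHH it stood at 37.3 and 43.5 CPM in batch 1, and at 33.0, 40.2 and 34.5 CPM in batch 2. Every HHH library was above every general library, across batches as well as within them.

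The log2 fold change of IER3 was 0.74 (SE 0.08, edgeR adjusted p = 4.32e-05), a fold of 1.67. It was 0.77 in batch 1 (SE 0.12, edgeR adjusted p = 0.00326) and 0.72 in batch 2 (SE 0.10, edgeR adjusted p = 0.000359). The difference of -0.05 (SE 0.15, edgeR adjusted p = 0.893) was smaller than its error. The genes within 2 percentage points of the GC content of IER3 (58.5%) had medians of 0.09 and -0.12 in the 2 batches, and with the GC trend removed the change of IER3 was 0.81. With the replicate block the batch 1 value, which then rests on 1 pair, was 0.60 with an edgeR adjusted p of 0.0539, and without general batch 1 replicate 1 it was 0.72 with 0.0611. The antisense transcript HCG20, which shares 6.30% of the exonic bases of IER3, had at most 0.141 CPM.

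IER2 (ENSG00000160888, chromosome 19, 13150411 to 13154911, plus strand), a nuclear protein also called ETR101, was the most abundant of the 10 in CPM. The general libraries held 49.7 and 58.3 CPM in batch 1, and 60.1, 57.2 and 56.4 CPM in batch 2. The HHH libraries held 86.8 and 76.9 CPM in batch 1, and 62.9, 66.9 and 61.0 CPM in batch 2. All HHH values lay above all general ones, by a narrow margin in batch 2.

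For IER2 the log2 fold change was 0.32 (SE 0.09), with an edgeR adjusted p of 0.0556 that missed the threshold. It was 0.60 in batch 1 (SE 0.11, edgeR adjusted p = 0.00897) and 0.13 in batch 2 (SE 0.09, edgeR adjusted p = 0.334), and the difference was not called (edgeR adjusted p = 0.119). With the GC trend removed the change over both batches was 0.39 with an edgeR adjusted p of 0.00393, with 0.49 in batch 1 and 0.32 in batch 2. The batch 1 call was lost without general batch 1 replicate 1 (edgeR adjusted p = 0.147), without HHH batch 1 replicate 2 (0.0779) and with the replicate block (0.0652). An antisense RNA shares 30.7% of the exonic bases of IER2 and had 17.1 to 40.4 CPM, with a log2 fold change of 0.40 (edgeR adjusted p = 0.12).

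IER5 (ENSG00000162783, chromosome 1, 181088700 to 181092900, plus strand), which promotes the heat shock factor HSF1, did not differ detectably between populations. Its log2 fold change was -0.06 (95% interval -0.29 to 0.18, edgeR adjusted p = 0.815). Its levels followed the batch: all 6 libraries of batch 2 lay between 9.59 and 11.98 CPM, below the 4 of batch 1, which lay between 13.2 and 20.1 CPM. The log2 difference of batch 2 from batch 1 was -0.66 (SE 0.11, edgeR adjusted p = 0.000284).

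By batch, the called members were JUND, IER2 and IER3 on the higher side in batch 1, where 1.12% of all tested genes were called higher. In batch 2, IER3 was called higher (3.83% of all tested genes) and EGR1 and FOSL1 lower (5.65%). With the replicate block JUND alone was called in batch 1 (0.67, edgeR adjusted p = 0.0479). Comparing batch 2 with batch 1, EGR1, FOSL1 and JUN were higher and IER5 lower, in a comparison that called 24% of all tested genes higher and 23.9% lower. The batch level of JUN (log2 0.41, SE 0.15, edgeR adjusted p = 0.0379) lost its call without 1 library in 6 of 10 cases, with an adjusted p of up to 0.103 (without general batch 1 replicate 2). That of FOSL1 (log2 0.60, SE 0.19, edgeR adjusted p = 0.0173) lost its call without that same library (0.0787).

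Per length, IER3 was the most abundant on average (22.3 RPKM over the 10 libraries), followed by IER2 (20.7), JUND (14.3), FOS (5.33), IER5 (3.12), EGR1 (2.74), ATF3 (2.44), JUN (2.36), JUNB (2.06) and FOSL1 (0.501). Neighbours in this order overlapped in their ranges except at 2 places. JUND, at 10.2 to 23.4 RPKM, lay above FOS, at 3.63 to 7.29 RPKM, and JUNB, at 1.70 to 2.72 RPKM, lay above FOSL1, at 0.279 to 0.839 RPKM. The 2 most abundant genes and JUND thus stood apart from FOS, JUN and EGR1, the members best known for fast induction.

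HHH batch 2 replicate 2 had the highest level of the 3 HHH libraries of its batch for 7 of the 10 genes. The excess was largest for FOS (0.53 on the log2 scale above the mean of its population and batch) and JUN (0.47), followed by ATF3 (0.21), while EGR1 was at -0.08. In that library 34 of the 55 other immediate early genes tested were also the highest of the 3, beside 28.2% of all tested genes. HHH batch 2 replicate 3 was the highest for none of the 10 and for 8 of the 55, beside 39.8% of all tested genes.

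**Figure D4:**
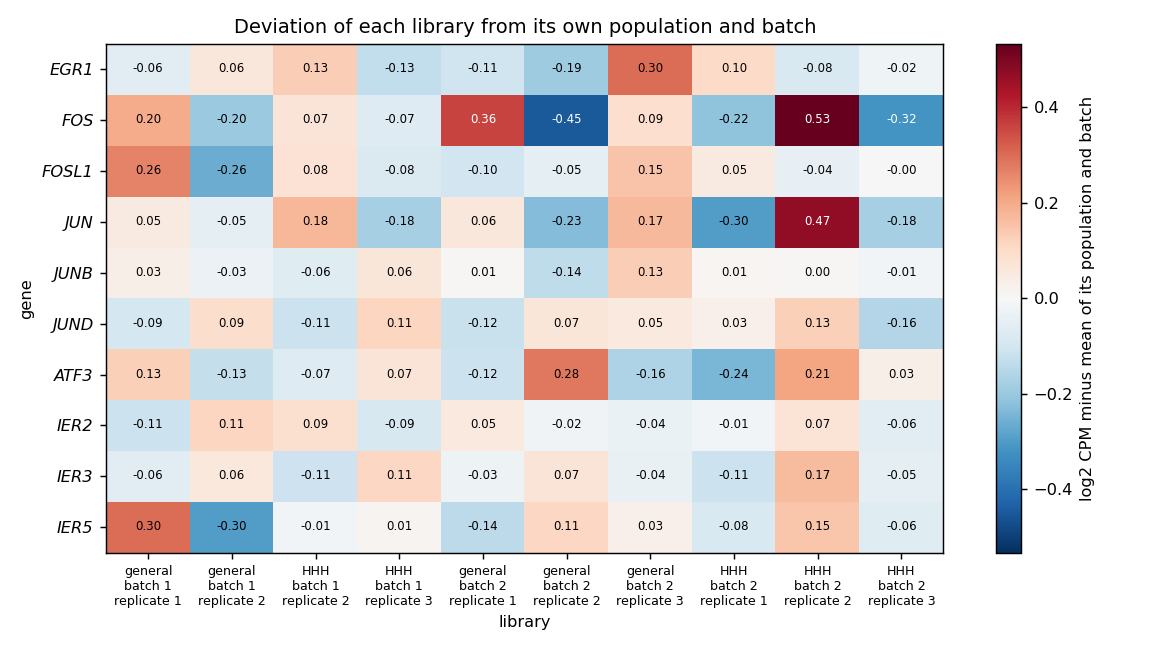
Deviation of each library (horizontal axis) from the mean of its own population and batch for each of the 10 genes (vertical axis), in log2 CPM with 0.5 CPM added. Red is above and blue below that mean. FOS and JUN in HHH batch 2 replicate 2 stood highest, at 0.53 and 0.47.

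Beyond the 10, a list of 60 other immediate early genes was examined, of which 55 were tested. Of these, 5 were higher and 8 lower in HHH, and 42 did not pass, where 1.94% of all tested genes were called higher and 3.89% lower. The median log2 fold change was -0.03. The 8 lower genes include EGR3, which passed the filter on low counts through its general libraries. Those lower, beside EGR2 and EGR3, included BTG2, an antiproliferative gene (log2 fold change -0.998, SE 0.20), KDM6B, a histone H3 lysine 27 demethylase (-0.97, SE 0.18), CITED2, a regulator of CBP and p300 (-0.77, SE 0.10), ZFP36L2, an mRNA decay factor (-0.60, SE 0.10), and ID1, an inhibitor of basic helix-loop-helix factors and a target of BMP signalling (-0.60, SE 0.10). Their edgeR adjusted p ran from 0.000361 for CITED2 to 0.00732 for BTG2. Within batch 1, ID1 alone of these passed the edgeR test. ZFP36L2 was at -0.24 in batch 1 (edgeR adjusted p = 0.251) and at -0.84 in batch 2 (edgeR adjusted p = 2.42e-05). The difference between these 2 changes had an edgeR adjusted p of 0.0539.

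The 5 genes higher in HHH were DUSP5, CEBPB, MYC, SGK1 and SOCS3, of which the last 3 are named after their values were seen. Their log2 fold changes were 0.45, 0.46 and 0.29 (SE 0.08, 0.12 and 0.08, edgeR adjusted p = 0.00261, 0.0392 and 0.0481). The calls of SGK1 and SOCS3 were close to the threshold. SGK1 was at 0.15 in batch 1 (edgeR adjusted p = 0.669), and SOCS3 at 0.17 in batch 2 (edgeR adjusted p = 0.23). The largest changes were those of DUSP5, a nuclear phosphatase of ERK that ERK itself induces, and CEBPB, a basic leucine zipper factor. DUSP5 rose by 0.68 (SE 0.13, edgeR adjusted p = 0.00527) and CEBPB by 0.61 (SE 0.12, edgeR adjusted p = 0.00777) on the log2 scale. CEBPB was at 0.96 in batch 1 (edgeR adjusted p = 0.00231) and at 0.36 in batch 2, where it was not called (edgeR adjusted p = 0.0684). The sign of these 5 was that of IER3 and opposite to that of EGR1. The FOS relatives FOSB and FOSL2 did not pass over both batches. FOSB, at 1.36 to 4.06 CPM in general and 0.760 to 2.97 CPM in HHH libraries, was at -0.79 on the log2 scale (SE 0.34, edgeR adjusted p = 0.207), and FOSL2 was at -0.27 (SE 0.13, edgeR adjusted p = 0.254). Within batch 2 FOSL2 was lower, at -0.52 (SE 0.12, edgeR adjusted p = 0.015).

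**Figure D5:**
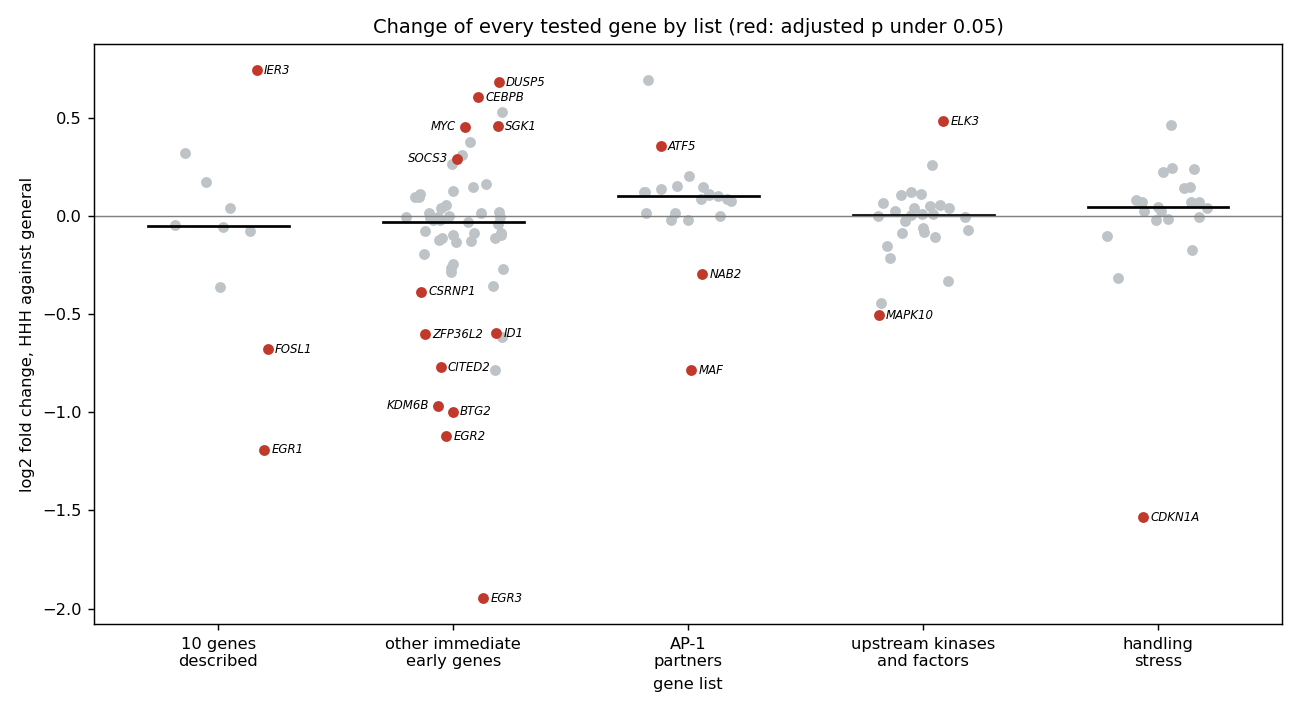
Log2 fold change of HHH against general (vertical axis) for every tested gene of 5 lists (horizontal axis). Red points passed an adjusted p of 0.05 and are named, grey points did not, and the bar is the median of the list. Medians lay between -0.05 and 0.10, with called genes on both sides in all lists but that of handling stress, where CDKN1A (-1.53) was the 1 gene called.

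The list named AP-1 partners held 22 genes, of which 21 were tested. They are the EGR corepressors and basic leucine zipper factors, not all of which pair with FOS and JUN proteins. The median was 0.10, and 1 was higher and 2 were lower, beside the same 1.94% and 3.89% of all tested genes. MAF fell by 0.79 on the log2 scale (SE 0.11, edgeR adjusted p = 0.000492), and NAB2 was lower as given above. ATF5 was higher (0.36, SE 0.09, edgeR adjusted p = 0.0317), a call that was lost with the replicate block (adjusted p = 0.0612) and in 7 of 10 cases without a library, with an adjusted p of up to 0.0873 (without HHH batch 1 replicate 2).

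All 27 upstream kinases and factors were tested, with a median of 0.00. Of these 1 was higher and 1 lower, beside 1.94% and 3.89% of all tested genes. The kinase gene MAPK3 had a log2 fold change of -0.11 and SRF, the factor that binds CArG boxes, had 0.04, neither past the test. MRTFA, named after its values were seen, was the 1 gene of this list with an interaction. Its log2 fold change was 0.37 in batch 1 (edgeR adjusted p = 0.126) and -0.38 in batch 2 (edgeR adjusted p = 0.0258). The difference of -0.76 (SE 0.15) had an edgeR adjusted p of 0.0404, and 0.722% of all tested genes were called more negative in batch 2. The neuronal JNK gene MAPK10 was lower (-0.51, SE 0.11, edgeR adjusted p = 0.0157), and ELK3, an ETS factor that can repress FOS, was higher (0.48, SE 0.11, edgeR adjusted p = 0.0169). Without HHH batch 2 replicate 1 the adjusted p was 0.0566 for MAPK10 and 0.0631 for ELK3, and ELK3 also lost its call without general batch 2 replicate 2 (0.0515) or 3 (0.055).

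Cell sorting can itself induce immediate early and stress genes, and a list of handling stress genes was therefore set beside the 10. Of 21 tested, 1 was lower and 20 did not pass, and the median was 0.04. Of all tested genes 1.94% were called higher and 3.89% lower. The heat shock genes HSPA1A (0.15) and DNAJB1 (0.14) and the stress gene DDIT3 (-0.02) had log2 fold changes that did not pass the test. The largest positive change of the list was that of HMOX1 (0.47, SE 0.15, edgeR adjusted p = 0.0962), which did not pass. HSPA8 was at 0.25 (edgeR adjusted p = 0.21). HSPD1 (0.23) and HSPE1 (0.24), named after their values were seen, did not pass over both batches either. Within batch 2 they were called higher (0.38, edgeR adjusted p = 0.0262, and 0.39, edgeR adjusted p = 0.0206), as were 3.83% of all tested genes. In batch 1 they were at -0.01 and 0.01. CDKN1A, the p53 target that encodes the cyclin-dependent kinase inhibitor p21, was lower in HHH, at 2.78 to 4.86 CPM against 7.08 to 25.1 CPM in general. Its log2 fold change was -1.53 (SE 0.25, edgeR adjusted p = 0.00212). The 25.1 CPM came from general batch 1 replicate 1, and without that library the change was -1.14. With the replicate block it was -1.16 (edgeR adjusted p = 0.00326).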

How the data were processed

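RNA sequencing (TruSeq) of 10 libraries was used. The authors deposited whole fragment counts per Ensembl gene, without normalization, and log2 values, a score made by TMM scaling and conversion to RPKM from which a batch term had been subtracted; the latter served as an alternative. The submitters' processing notes name GRCh37, CASAVA 1.8.2, R 3.2.2 and limma 3.26.9. The aligner, counting tool, strand setting and annotation are not given in the sources used here. The deposit mentions a protein kinase C inhibitor that no label carries, and the study's text names the line WA09 where the labels give HES9. Neither point is resolved here.

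Identifiers were matched to GENCODE 44 (GRCh38), and 88.5% matched. Genes were kept by filterByExpr (population as group, minimum count 10), scaled by TMM and tested with edgeR 4.0.16 in R 4.3.3 (glmQLFTest), two-sided, with batch as a term. Within-batch changes and the interaction came from a fit of 4 groups (batch and population). SE is the change divided by the square root of F. Fits were tested on simulated data. The range of library depths is given in the report.

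The genes, lists and tests were chosen with earlier results of these data known, so no list is independent support. Named were all 10 genes and, among called genes of at least 1 CPM, the 8 largest changes of the other immediate early genes and the 4 largest of each other list. Deviations of same-numbered libraries from their group means correlated over tested genes at 0.113 (batch 1, replicate 2), 0.239, 0.143 and 0.113 (batch 2, replicates 1 to 3), above 0.1 in each pair, and over genes of at least 1 CPM at 0.0871 to 0.293. In batch 1, with 2 libraries of each population, general replicate 1 and HHH replicate 3 gave the same 0.113. The value of batch 1 therefore cannot tell whether the numbers pair its libraries. The numbers were taken as pairing 8 libraries. Alternatives were the replicate block, no batch term, other scalings and filters, DESeq2 1.42.0, limma 3.58.1 (voom, or the log2 values as deposited), leaving out small RNAs and mitochondrial genes, a GC trend removed (spline, 5 degrees of freedom), single batches, and each library left out.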

Additional observations from a re-analysis of the deposited data

Results flagged for a closer look

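The change of JUND differed between the batches by the test of interaction: its log2 fold change in batch 2 minus that in batch 1 was -1.17 (SE 0.16, edgeR adjusted p = 0.00608). HHH was above general in 2 of 2 libraries of batch 1 and below it in 3 of 3 libraries of batch 2, and the difference was -0.42 with the GC trend removed (edgeR adjusted p = 0.261).

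A sample far from the other 4 of its population was found in 3 of 48 sets of a gene and a population examined, and chance gives about 1 in 20. BTG2 was at 2.36 CPM in general batch 1 replicate 2, the lowest of general. MAPK10 was at 3.18 CPM in the same library, also the lowest. CDKN1A was at 25.1 CPM in general batch 1 replicate 1, the highest. None of the 10 immediate early genes of the report had such a library.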

How the results depend on the processing

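The increase of IER3 passed in all 23 alternatives, with log2 fold changes of 0.60 to 0.81. The decrease of EGR1 passed in 22 of 23, with log2 fold changes of -1.31 to -1.06. Without a batch term the adjusted p of EGR1 was 0.119, 1 of the 10 genes passed instead of 3, 3 of the other immediate early genes instead of 13, and 168 of all genes instead of 1373. FOSL1 lost its call in 12 of 22 alternatives and IER2 gained one in 5 of 23. Without a filter on low counts 5 of the 10 genes and 2423 of all genes passed, since FOS and IER2 were then called, and with the GC trend removed in the replicate block 2454 of all genes did. With the replicate block itself 2 of the 10 genes passed over both batches and 4 in batch 2. In batch 1, where the fit was chosen after seeing the data, the block rested on 1 pair. Among the 10 genes, EGR3 and the list genes named by the size of their change, the block changed no other call than those given in the report. The other genes mentioned, such as SGK1, SOCS3 and the cell type markers, are not covered by that statement. The interaction was called for 3 genes by DESeq2 (EGR1, JUNB and JUND), for 0 by edgeR with the GC trend removed and for 0 when the block was added to that fit, after seeing the data. In each of these last 2 fits 3 of the 10 genes had an unadjusted p under 0.05. The cause of these differences was not tested.

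Leaving out 1 library gave 806 to 2347 called genes, 2 to 3 of the 10 over both batches, 1 to 4 in batch 1, 0 to 1 with an interaction and 2 to 5 between batches. All genes fell to 806 without HHH batch 2 replicate 2, 831 without HHH batch 2 replicate 1, 841 without general batch 2 replicate 3 and 896 without general batch 2 replicate 1, and rose to 2347 without HHH batch 1 replicate 3. The members in batch 1 fell to 1 and the interaction to 0 (edgeR, with 5 genes at an unadjusted p under 0.05) without general batch 1 replicate 1, and the batch calls to 2 without general batch 1 replicate 2.

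Of the genes that did not pass, some changed sign without being called. With the replicate block JUNB was at -0.0967, JUND at -0.0572 and IER5 at 0.0055, and when the GC trend was removed too JUN was at 0.0389 and IER5 at 0.00271. On the deposited log2 values JUNB was at -0.0934, where the median of all genes was -0.12 and 50 genes were higher and 1231 lower, against 458 and 915 in the counts. Without 1 library FOS ranged from -0.548 to -0.262, with no change of sign, JUN from -0.199 to 0.0449, JUNB from -0.0569 to 0.123, IER5 from -0.155 to 0.0339 and ATF3 from -0.149 to 0.00161. Depth limits FOSL1 most, at 23 to 95 counts per library.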
